A study of Mus musculus with 39 samples.

Results

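The netrin and Dcc receptor genes described here are 10 mouse genes chosen by name: the receptors Dcc, Neo1, Unc5a, Unc5b, Unc5c and Unc5d, the secreted netrins Ntn1 and Ntn4, and the membrane-anchored netrins Ntng1 and Ntng2. All 10 were found among the 24100 genes of the table, and all 10 passed the low-count filter in each comparison. They were followed in 39 libraries of polyadenylated RNA from maturing cerebellar granule cells, which are small, abundant and excitatory neurons. In translating ribosome affinity purification (TRAP) an EGFP-tagged ribosomal protein L10a is pulled down with its bound RNA. Neurod1 TRAP libraries came from cerebellar lysates of Tg(NeuroD1-Egfp-L10a) mice at postnatal day (P) 7, 12 and 21, with 5 libraries at each age. Math1 (Atoh1) TRAP libraries came from granule cell progenitors isolated at P7 from Tg(Atoh1-Egfp-L10a) mice, with 4 libraries. Total cerebellar RNA gave 1 input library at each of the ages P7, P12 and P21. The strain of all these libraries was C57Bl/6J. Primary granule cells of P6-P7 C57Bl/6J mice gave 2 libraries each of fresh progenitors (DIV0, 0 days in vitro), of cultures in DMSO at DIV2 and DIV5, and of DIV5 cultures in 100 nM UNC1999. This compound inhibits EZH2 and EZH1, the catalytic subunits of PRC2, which methylates histone H3 at repressed genes. Another set of DIV5 cultures, from P7 progenitors, was Ezh1(cKO/cKO);Atoh1-Cre, also written Ezh1(fl/fl);Atoh1-Cre, with 4 libraries, and Ezh1(wt/wt);Atoh1-Cre with 5. Atoh1-Cre was thus present in both genotypes, and the labels name no strain for these. Atoh1 is active in granule cell progenitors, so other cells of the culture need not have lost Ezh1. The TRAP tag marks every cell in which the transgene is active, not granule cells alone. The labels do not say that replicates came from separate animals, so p-values measure the spread between libraries, which may be technical.

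Netrins are laminin-related guidance molecules. Ntn1 attracts axons and migrating cells through Dcc and its relative Neo1 (neogenin), and repels them through the Unc5 receptors, which act alone or together with Dcc. Several of these receptors are also known as dependence receptors, which signal cell death when no ligand is bound. Ntn4 is closer in sequence to laminin beta chains than Ntn1 is, and binds laminin in basement membranes. Ntng1 and Ntng2 are held on axons by a lipid anchor and bind synaptic adhesion proteins of the Lrrc4 family, not Dcc or Unc5. On the mouse assembly GRCm38.p6 (RefSeq) Dcc lies on chromosome 18, Neo1 at chr9:58874679-59036614, Unc5a at chr13:54945151-55006018, Unc5b at chr10:60762594-60831581, Unc5c at chr3:141465564-141834924 and Unc5d at chr8:28646717-29219671. Ntn1 lies at chr11:68209364-68386826, Ntn4 at chr10:93641049-93745972, Ntng1 at chr3:109780050-110149972 and Ntng2 at chr2:29194726-29248099. The spans of other annotated genes lie over exons of Neo1 (Gm47271), Unc5a (Hk3), Unc5c (Gm15688 and Gm15689), Ntn4 (Gm15915) and Ntng2 (6530402F18Rik). Whether exons of both genes share bases was not checked, so the counts of these members carry that uncertainty. In the mouse cerebellum, loss of Unc5c lets granule cells spread beyond their normal boundary.

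Library totals ran from 12.1 to 38.5 M counts. Summed over 10 granule lineage markers, the level was 7530 to 8220 counts per M (CPM) in Neurod1 TRAP at P7, 10400 to 11200 at P12 and 13700 to 14600 at P21, with no marker at 0. Summed over 7 progenitor markers it was 985 to 1270 CPM at P7, 148 to 231 at P12 and 5.38 to 7.74 at P21. Levels below are plain CPM. Log2 fold changes (± SE) come from edgeR after TMM scaling, which corrects for library composition, so they can depart from the ratio of the CPM values. A gene is called when its Benjamini-Hochberg adjusted p over all genes tested is under 0.05. Scaling by library size alone moved the median log2 fold change of all genes to -0.22 from -0.05 for P21 over P7, to -0.15 from 0.0009 for P21 over P12, to -0.46 from -0.07 for TRAP over input, to 0.09 from -0.05 for DIV5 over DIV2, and to 0.15 from 0.04 for DIV5 over DIV0. With that scaling the calls split into 3451 higher and 6222 lower for P21 over P12 (4784 and 4821 with TMM). They split into 3133 and 9089 for TRAP over input (5667 and 6375 with TMM), and into 5864 and 4357 for DIV5 over DIV2 (4966 and 5699 with TMM). Fold changes below are to be read against these medians. In the Ezh1 cultures, replicates 1 and 2 of both genotypes stood apart from replicates 3 to 5.

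As granule cells matured in the animal, Dcc, Neo1, Unc5c, Unc5d and Ntn1 fell, while Unc5a, Unc5b, Ntn4 and both netrin-G genes rose. From P7 to P21, 5 of 10 members were called higher and 5 lower in Neurod1 TRAP. Of all 14759 genes tested 81.5% were called, 38.9% higher and 42.5% lower. The members' median log2 fold change was 0.059, against -0.050 over all genes. From P7 to P12, 4 were called higher and 3 lower, with 68.2% of all genes called, 31.5% higher and 36.7% lower. From P12 to P21, 3 were higher and 4 lower, with 65.1% of all genes called, 32.4% higher and 32.7% lower. With so many genes called, the counts say little about the members, and the sizes and courses of single genes follow.

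Dcc, the receptor through which netrin-1 attracts growth cones, showed the steepest fall of the members. Its level was 34.4, 37.5, 42.2, 35.6 and 53.2 CPM in the P7 libraries, 8.66, 10.7, 10.3, 12.2 and 10.3 CPM at P12, and 2.51, 1.26, 1.37, 1.89 and 1.8 CPM at P21. No library of any age reached into the range of another age. The log2 fold change was -1.93 ± 0.12 for P12 over P7 (adjusted p = 8.6e-12), -2.43 ± 0.15 for P21 over P12 (5.3e-12) and -4.36 ± 0.15 for P21 over P7 (3.1e-17), a 20.5-fold fall. Neo1, which binds netrins and also the repulsive guidance molecules Rgma and Rgmb, measured 99.7, 135, 154, 125 and 196 CPM at P7, 76.2, 96.3, 96, 90.5 and 94.3 CPM at P12, and 36.6, 30.8, 33, 38.1 and 36.8 CPM at P21. It stayed well above Dcc at every age and fell less, -1.84 ± 0.12 from P7 to P21 (adjusted p = 6.9e-12), with the larger step after P12 (-1.22 ± 0.12, against -0.62 ± 0.12 before it). In RNA pooled over many cells, fewer cells of a type and less RNA per cell cannot be told apart.

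The Unc5 receptors, which mediate repulsion from netrin-1, split into a rising and a falling pair. Unc5a measured 7.48, 13, 12.1, 8.52 and 11.2 CPM at P7, 16.8, 18.3, 19.1, 18.1 and 20.8 CPM at P12, and 46.5, 40.9, 46.1, 42.5 and 45.8 CPM at P21. The 3 ages did not overlap, and the rise was 4.81-fold from P7 to P21 (2.26 ± 0.12, adjusted p = 6.6e-14), with 0.86 ± 0.12 before P12 and 1.41 ± 0.11 after it. Unc5b, also a receptor on blood vessel cells, was highest at P12, at 58.3 to 92.5 CPM at P7, 118 to 143 CPM at P12 and 93.8 to 111 CPM at P21. It rose to P12 (0.86 ± 0.11, adjusted p = 7e-07) and stood above P7 at P21 (0.62 ± 0.11, 2.9e-05). All P21 libraries lay below all P12 libraries in CPM, but the difference did not pass after TMM scaling (-0.24 ± 0.11, adjusted p = 0.064) and did when scaled by library size only (-0.39), in a fit of only these ages (-0.25) and without P12 replicate 1 (-0.28).

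Unc5c measured 87.6, 102, 120, 86.3 and 127 CPM at P7, 71.5, 76.4, 73.6, 89.4 and 82 CPM at P12, and 28.1, 23.3, 23.6, 29.1 and 23.7 CPM at P21. Its P7 and P12 ranges overlapped, and the P21 libraries lay far below both. The log2 fold change was -0.38 ± 0.10 for P12 over P7 (adjusted p = 0.0027), -1.47 ± 0.11 for P21 over P12 (1.1e-10) and -1.85 ± 0.11 for P21 over P7 (5.8e-13). Unc5d, which binds Flrt2 as a repellent in cortical neurons of the mouse, was rare, at 2.79 to 6.75 CPM at P7, 4.35 to 5.6 CPM at P12 and 1.42 to 1.96 CPM at P21. It did not pass between P7 and P12 (-0.071 ± 0.20, adjusted p = 0.76) and fell after P12 (-1.42 ± 0.21, 4.3e-06).

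**Figure D1:**
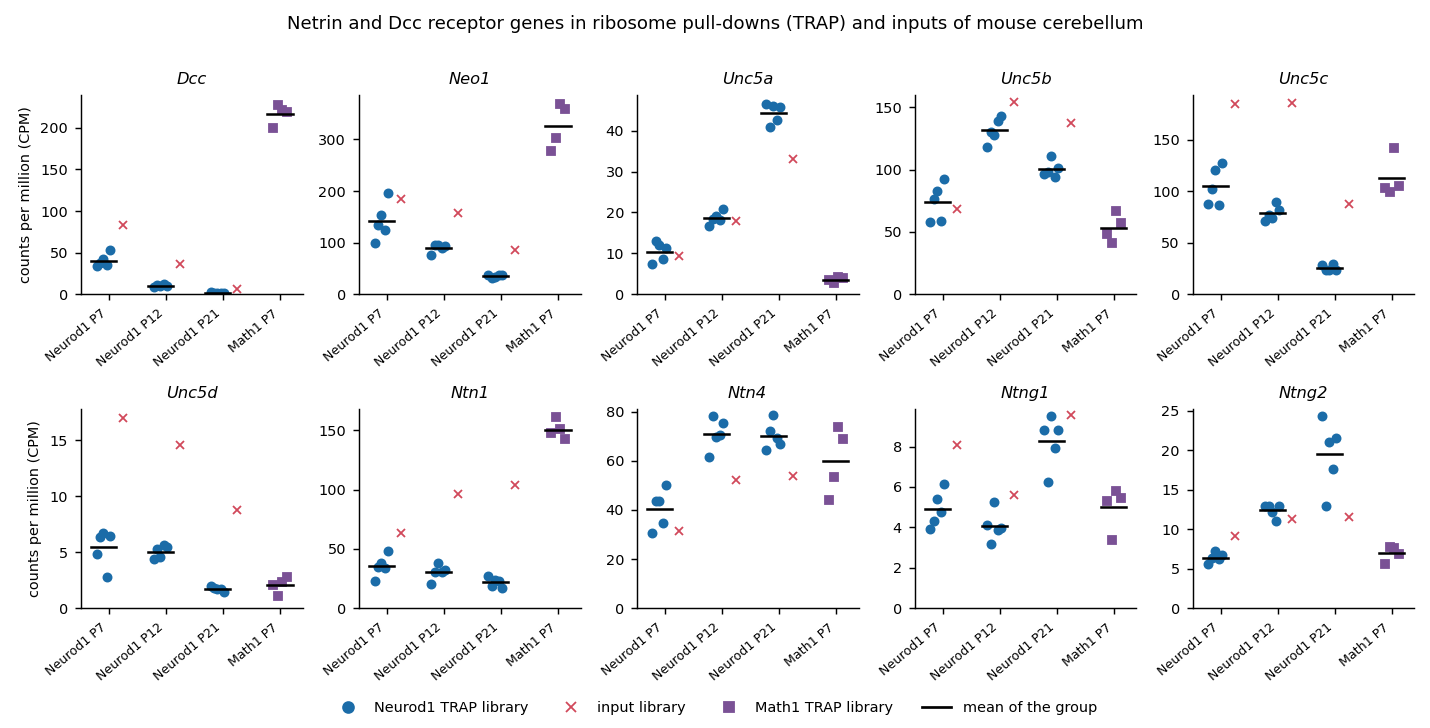
Level in CPM (vertical axis, from 0) of the 10 genes in each Neurod1 TRAP library (circles) by age, in the input of the same age (cross to its right) and in the Math1 TRAP libraries at P7 (squares), with bars for group means. In Neurod1 TRAP Dcc is at 1.26 to 2.51 CPM at P21 and 34.4 to 53.2 CPM at P7, and Unc5a at 40.9 to 46.5 CPM at P21 and 7.48 to 13 CPM at P7.

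Among the secreted ligands, Ntn1 was called lower and Ntn4 higher at P21 than at P7. Ntn1 measured 22.5, 34.6, 38, 33.6 and 48 CPM at P7, 20.7, 30.3, 37.7, 30.1 and 32.5 CPM at P12, and 27, 18.8, 24, 23.1 and 16.9 CPM at P21. The ages overlapped, and only the change over both steps passed (-0.50 ± 0.16, adjusted p = 0.0064), neither step alone doing so (-0.19 ± 0.16, 0.29, and -0.31 ± 0.16, 0.091). The step from P12 to P21 passed when scaled by library size only (-0.46), without P12 replicate 1 (-0.42) and without P21 replicate 1 (-0.40). Ntn4 was at 30.6 to 50.2 CPM at P7, 61.5 to 78.1 CPM at P12 and 64.5 to 78.7 CPM at P21. Its rise lay in the first step (0.84 ± 0.12, adjusted p = 2.7e-06), and the second did not pass (0.14 ± 0.12, 0.31). With library size scaling the second step was -0.015, of the opposite sign.

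Both netrin-G genes rose, from low levels. Ntng2 measured 5.53, 6.31, 7.25, 6.2 and 6.77 CPM at P7, 12.9, 12.9, 12.2, 11 and 12.9 CPM at P12, and 24.3, 13, 21, 17.6 and 21.6 CPM at P21. The ages did not overlap, although the lowest P21 library lay just above the P12 libraries, and the change from P7 to P21 was 1.78 ± 0.13 (adjusted p = 3e-11). Ntng1 was at 3.93 to 6.14 CPM at P7, 3.2 to 5.26 CPM at P12 and 6.23 to 9.5 CPM at P21. It did not pass before P12 (-0.23 ± 0.16, adjusted p = 0.2) and rose after it (1.16 ± 0.15, 9.5e-07).

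Other genes of the pathway divided in the same comparison. Of 14 extracellular partners tested, 6 were higher and 7 lower at P21 than at P7 (median log2 fold change -0.16, against -0.050 over all genes). Lrrc4, of the family that binds netrin-G proteins, rose (1.88 ± 0.10). Its relative Lrrc4b, which need not bind them, rose as well (1.28 ± 0.10), as did the Unc5 partner Flrt1 (2.70 ± 0.18). Draxin, a secreted protein that binds Dcc and netrin-1, fell by 3.79 on the log2 scale (SE 0.16), Flrt2 by 3.20 (SE 0.16) and Dscam, a further netrin receptor, by 2.37 (SE 0.09). Of 29 cytoplasmic effectors 9 were higher and 15 lower (median -0.23). The Rac activator Tiam1 (3.69 ± 0.09) and the ubiquitin ligase Siah2 (2.14 ± 0.07), of a family that binds Dcc, were among the rises with the smallest p. The actin regulator Enah (-2.74 ± 0.07), the phospholipase Plcg1 (-2.39 ± 0.06) and the focal adhesion kinase Ptk2 (-2.18 ± 0.07) were the falls with the smallest p.

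Markers of other cell types moved across the same ages. The sum over 8 Purkinje cell markers was 681 to 817 CPM at P21 and 309 to 419 CPM at P7 in Neurod1 TRAP (6 higher and 2 lower). For 3 unipolar brush cell markers it was 1330 to 1770 CPM at P21 and 95.7 to 160 CPM at P7 (2 higher, 1 lower). Their log2 fold changes ran from -1.28 to 5.20 with a median of 0.41, so this sum does not stand for each marker. For 12 oligodendrocyte lineage markers the sum was 646 to 1070 CPM at P21 and 312 to 426 CPM at P7 (8 higher, 3 lower). Of 12 vascular and meningeal markers 3 were lower, with sums of 16.6 to 27.6 CPM at P21 and 23 to 41.8 CPM at P7. All 3 cerebellar nuclei markers were lower, with sums of 5.67 to 6.88 CPM at P21 and 40.7 to 61.5 CPM at P7. Of 11 astrocyte markers 4 were higher and 4 lower, with sums of 289 to 345 CPM at P21 and 422 to 647 CPM at P7. No marker of these lists was at 0 in every library of an age. The part of these cells in the members' changes was not tested.

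Set against exon length, the order of the members turned over with age. In Neurod1 TRAP at P7, Neo1 had the highest level, 16.3 CPM per kb of exon, followed by Unc5b at 11.8 and Ntn4 at 10.8, with overlapping ranges from each to the next. At P12 Unc5b, at 21 CPM per kb, and Ntn4, at 19, overlapped at the top, and Neo1 lay below them at 10.4. At P21 the order began with Ntn4 at 18.8, Unc5b at 16 and Unc5a at 10.6 CPM per kb. The first 2 overlapped and Unc5a lay below both. Unc5d at 0.185 and Dcc at 0.134 CPM per kb came last and overlapped. The sum of Dcc and Neo1 was 14 to 26.5 CPM per kb at P7, 9.4 to 11.9 at P12 and 3.63 to 4.51 at P21. The sum of the 4 Unc5 genes was 16.2 to 24.8, 27.1 to 32.7 and 26.9 to 30.2 CPM per kb at the same ages. The sums overlapped at P7, and from P12 on every library held more Unc5 than Dcc and Neo1. Within the Unc5 sum, Unc5a made up 10.9 to 14.7% at P7, 13.6 to 15.6% at P12 and 36.4 to 39.4% at P21. Unc5c made up 24.9 to 28.2%, 13.1 to 14.6% and 4.08 to 5.66% at these ages, and Unc5b 57.2 to 59.5%, 69.6 to 70% and 54.7 to 58.8%. In the Math1 libraries Dcc and Neo1 summed to 47 to 59.1 CPM per kb and the Unc5 genes to 12.5 to 19.4, with Neo1 at 37.5 and Ntn1 at 24 leading the order. In culture the sum of Dcc and Neo1 was 104 to 106 CPM per kb at DIV0, 41.4 to 42.1 at DIV2 and 33.6 to 33.9 at DIV5, and the Unc5 sum 45.4 to 46.2, 87.5 to 89.9 and 56.7 to 59.6. The sums thus changed places between DIV0 and DIV2. Unc5b overlapped Neo1 at the top at DIV5 (32.6 and 33.5 CPM per kb), where Dcc came last (0.309), while at DIV0 Dcc was second (37.3, after Neo1 at 67.6). The level per kb takes the union of annotated exons as the length, which need not be the transcript in use.

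**Figure D2:**
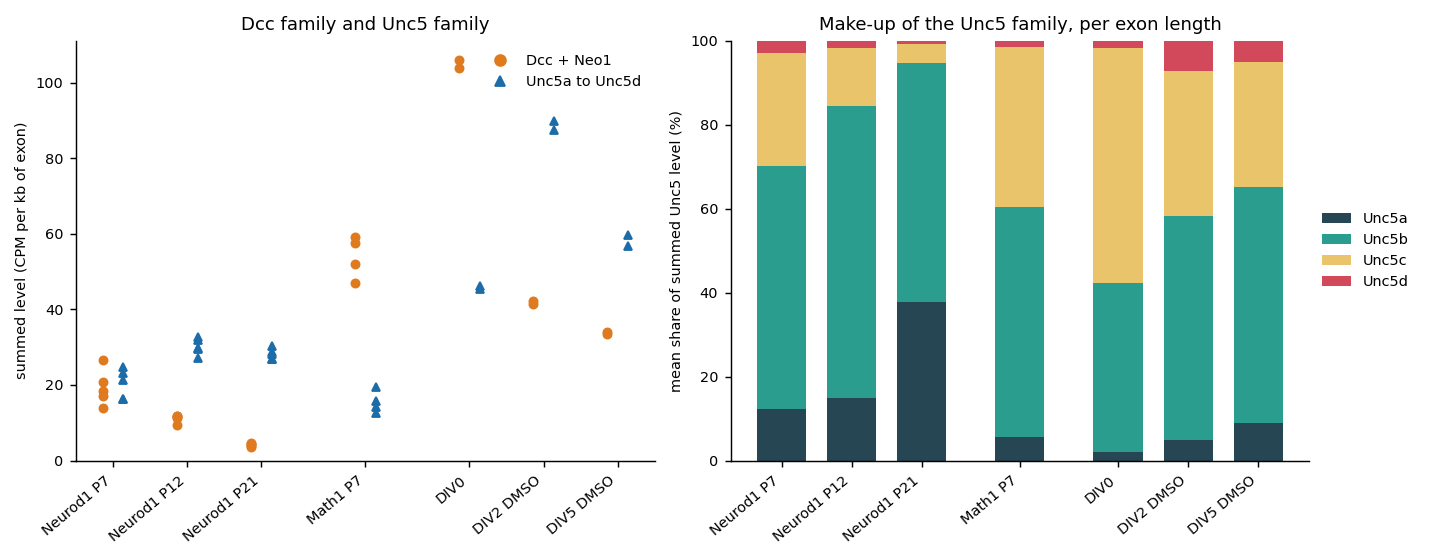
Left, the summed level of Dcc and Neo1 (circles) and of Unc5a to Unc5d (triangles) in CPM per kb of exon for each library; right, the mean share in percent of each Unc5 gene in the Unc5 sum. At P21 the Unc5 sum is 26.9 to 30.2 CPM per kb and the Dcc and Neo1 sum 3.63 to 4.51, while at DIV0 the Unc5 sum is 45.4 to 46.2 and the Dcc and Neo1 sum 104 to 106.

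At P7 the Neurod1 pull-down can be set beside that from Math1-line progenitors of the same age. Dcc, Ntn1 and Neo1 were lower in the Neurod1 libraries than in the progenitors, and Unc5a and Unc5d higher. Of the 10 members 3 were higher and 4 lower, with 72.4% of all genes called, 36.5% higher and 35.8% lower. Dcc was at 34.4 to 53.2 CPM in Neurod1 TRAP and at 200, 228, 221 and 219 CPM in Math1 TRAP (-2.43 ± 0.12, adjusted p = 1.9e-13). Ntn1 was at 22.5 to 48 CPM in Neurod1 TRAP and at 148, 161, 151 and 143 CPM in Math1 TRAP (-2.11 ± 0.17, 3.9e-10). For neither gene did the lines come near each other. Neo1 was at 99.7 to 196 CPM in Neurod1 TRAP, against 277, 303, 369 and 358 CPM in Math1 TRAP (-1.21 ± 0.13, adjusted p = 2.2e-08). Unc5a was at 7.48 to 13 CPM in Neurod1 TRAP, against 3.46, 2.8, 4.27 and 3.89 CPM in Math1 TRAP (1.55 ± 0.14, 4e-09).

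The ranges of the remaining members overlapped between the lines. Unc5d was at 2.79 to 6.75 CPM in Neurod1 TRAP and 1.1 to 2.81 CPM in Math1 TRAP (1.44 ± 0.24, adjusted p = 1.3e-05). Ntn4 was at 30.6 to 50.2 CPM in Neurod1 TRAP and 44 to 73.8 CPM in Math1 TRAP (-0.56 ± 0.13, 5e-04). Unc5b was at 58.3 to 92.5 CPM in Neurod1 TRAP and 40.8 to 66.8 CPM in Math1 TRAP (0.47 ± 0.12, 0.0015). Its call was lost against Math1 replicates 3 and 4 alone (0.29). Those libraries held 15.7 and 12.1 M counts, against 25.7 and 30 M in Math1 replicates 1 and 2. Atoh1 was at 609 and 683 CPM in them, against 945 and 1310 CPM. Unc5c, Ntng1 and Ntng2 did not pass (-0.11 ± 0.11, -0.012 ± 0.17 and -0.12 ± 0.15). Among the partners 8 of 14 were higher and 4 lower in the Neurod1 line (median 0.67), and among the effectors 14 of 29 were higher and 8 lower (median 0.16). Lrrc4c, the Ntng1 partner, was 6.65-fold higher (2.73 ± 0.16), Dscam 3.48-fold (1.80 ± 0.09) and Pak1, a kinase downstream of Rac, 6.02-fold (2.59 ± 0.10). Draxin (-1.23 ± 0.14) and the Rac activator Dock1 (-1.88 ± 0.11) were lower. All 7 progenitor markers were lower in Neurod1 TRAP (985 to 1270 CPM in sum, against 3660 to 5120 CPM in Math1 TRAP). Of 12 vascular and meningeal markers 10 were lower (23 to 41.8 CPM, against 62.3 to 116 CPM), and of 8 Purkinje markers 6 were higher and 2 lower (309 to 419 CPM, against 218 to 272 CPM). Driver line and starting material, lysed cerebellum or isolated cells, change together and cannot be told apart.

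Set against total cerebellar RNA over the 3 ages, the Neurod1 pull-down held less Ntn1, Unc5d, Dcc, Unc5c and Neo1 and more Ntn4, Unc5a and, in the joint fit, Ntng2, which lay on different sides of input by age. With 15 TRAP libraries and 3 inputs fitted jointly and age as a term, 3 members were higher and 5 lower. Of all genes 77.8% were called, 36.6% higher and 41.2% lower. Ntn1 was at 22.5 to 48 CPM at P7, 20.7 to 37.7 CPM at P12 and 16.9 to 27 CPM at P21 in TRAP, against 63.5, 96.5 and 104 CPM in the inputs of these ages. The TRAP mean was thus 0.556, 0.313 and 0.211 of input. Every TRAP library lay below the input of its age (-1.25 ± 0.18, adjusted p = 5e-06). Unc5d (-1.46 ± 0.17, 2e-07), Dcc (-1.17 ± 0.15, 5.2e-07) and Unc5c (-0.90 ± 0.12, 8.1e-07) lay below input in every library of every age as well. For Dcc the TRAP mean was 0.489 of input at P7, 0.289 at P12 and 0.269 at P21, and for Unc5c 0.567, 0.425 and 0.291. With 1 input an age, these age-wise ratios carry no error. Ratios and ranges here are in plain CPM, which does not correct for library composition. With scaling by library size alone, the median log2 fold change of all genes was -0.46.

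Ntn4 was above input in every library at P12 and P21 (61.5 to 78.1 CPM in TRAP against 52.1 CPM in the input at P12, and 64.5 to 78.7 CPM against 53.7 CPM at P21), with 0.79 ± 0.11 in the joint fit (adjusted p = 2.8e-06). Unc5a (0.61 ± 0.13, adjusted p = 2.4e-04) and Ntng2 (0.47 ± 0.19, 0.032) were above input in every library at P21 only. Ntng2 was at 5.53 to 7.25 CPM at P7, 11 to 12.9 CPM at P12 and 13 to 24.3 CPM at P21 in TRAP, against 9.11, 11.3 and 11.6 CPM in the inputs of these ages, and so lay below input in every library at P7. Scaled by library size alone, Unc5a (0.22) and Ntng2 (0.087) no longer passed, and Ntng1 did (-0.46). Ntng2 also lost its call without the P12 input (0.50) or the P21 input (0.15). Neo1 was lower (-0.44 ± 0.13, 0.0057) and lost its call without the P21 input (-0.24). Unc5b (0.20 ± 0.11, adjusted p = 0.095) and Ntng1 (-0.073 ± 0.15, 0.67) did not pass. In plain CPM, Ntng1 nevertheless lay below input in every library at P7, P12 and P21, and Unc5b at P12 and P21. For Unc5b the sign flipped with library size scaling (-0.20), and it passed with DESeq2 (0.25), without the low-count filter (0.28), with that filter grouped by the 6 labelled groups (0.25) and without P7 TRAP replicate 4 (0.24). Without age in the fit, Ntn4, Ntn1 and Unc5d kept their calls and Dcc (-0.92), Unc5c (-0.77), Neo1 (-0.32), Unc5a (0.73) and Ntng2 (0.69) did not. Of 14 partners 4 were higher and 6 lower in TRAP, Lrrc4b (0.85 ± 0.13) and Flrt2 (-2.17 ± 0.20) among them. Of 29 effectors 16 were higher and 10 lower, Pak1 (1.18 ± 0.08) and Dock1 (-1.60 ± 0.18) among them. All 12 oligodendrocyte, 12 vascular, 11 astrocyte and 10 microglia markers were lower in TRAP. Of 8 Purkinje markers 7 were lower, and 7 of 7 interneuron markers. Vascular sums were 23 to 41.8 CPM at P7, 33.2 to 42.1 CPM at P12 and 16.6 to 27.6 CPM at P21 in TRAP, against 268, 208 and 125 CPM in the inputs of these ages. All 3 unipolar brush cell markers and 9 of 10 granule lineage markers were higher. Of 7 progenitor markers 5 were lower and 0 higher. The part of all these cells in the members' differences was not tested.

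In culture, all members were called between DIV0 and DIV2, though Ntn4 lost its call without DIV0 replicate 1 or DIV2 replicate 2. For changes from DIV0, time in culture and DMSO cannot be told apart, since DIV0 cells were fresh and the later cultures in DMSO. DIV2 cultures differed from DIV0 cells in 10 of 10 members, 6 higher and 4 lower. Of all genes 71.3% were called, 36.4% higher and 35.0% lower. Dcc fell most and Unc5d and Unc5a rose most. From DIV2 to DIV5, 1 member was higher and 6 lower, with 66.7% of all genes called, 31.1% higher and 35.7% lower. From DIV0 to DIV5, 4 were higher and 6 lower, with 78.3% called, 40.2% higher and 38.2% lower. With 2 libraries at each time, each test rests on a spread shared over the 8 culture libraries.

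Dcc stood at 497 and 486 CPM at DIV0, 19 and 19.4 CPM at DIV2 and 3.62 and 4.53 CPM at DIV5. It was 25.1-fold lower at DIV2 than at DIV0 (-4.65 ± 0.08, adjusted p = 6.3e-15), and lower again at DIV5 (-2.36 ± 0.12 against DIV2, 6.2e-10). Neo1 stood at 594 and 584 CPM, 348 and 354 CPM, and 293 and 290 CPM at the same times, with a log2 fold change of -1.13 ± 0.06 for DIV5 over DIV0 (adjusted p = 2.1e-10). At DIV5 both libraries held far more Neo1 than Dcc per kb of exon.

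Unc5a stood at 3.58 and 3.82 CPM at DIV0, 17.7 and 18.6 CPM at DIV2 and 20.6 and 23.1 CPM at DIV5. The rise lay in the first 2 days (2.31 ± 0.12, adjusted p = 3.1e-10), and the later step did not pass (0.13 ± 0.09, 0.22) except with library size scaling (0.28). Unc5d stood at 7.34 and 7.6 CPM, 57.5 and 59.4 CPM, and 26.6 and 27.4 CPM at these times. It rose 7.96-fold to DIV2 (2.99 ± 0.09, adjusted p = 5.5e-13) and then fell (-1.25 ± 0.07, 2.5e-09). Unc5b, at 112 and 120 CPM, 291 and 300 CPM, and 197 and 211 CPM, had the same up and down course (1.38 ± 0.05 and -0.68 ± 0.05). Unc5c, at 494 and 486 CPM, 582 and 594 CPM, and 333 and 333 CPM, rose slightly and then fell (0.29 ± 0.05, adjusted p = 6.4e-05, and -0.96 ± 0.05, 4.9e-10).

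Ntn1 stood at 135 and 131 CPM at DIV0, 23.3 and 26.1 CPM at DIV2 and 28.8 and 28.7 CPM at DIV5. It fell 5.29-fold to DIV2 (-2.40 ± 0.08, adjusted p = 1.2e-12), and the later step did not pass (0.083 ± 0.08, 0.39) except with library size scaling (0.23) and without DIV2 replicate 2 (0.25). Ntng2 stood at 3.32 and 3.13 CPM, 9.08 and 8.53 CPM, and 54.8 and 58.8 CPM, rising in both steps and 16.4-fold from DIV0 to DIV5 (4.03 ± 0.11, adjusted p = 2.2e-13). It was the single member called higher from DIV2 to DIV5 (2.54 ± 0.09, 2e-11). Ntn4 was at 79.9 and 81.7 CPM, 93.7 and 105 CPM, and 71.1 and 72.5 CPM. Its small rise to DIV2 (0.33 ± 0.07, adjusted p = 8.9e-04) lost its call without DIV0 replicate 1 or DIV2 replicate 2 (0.24 and 0.16), and it was lower at DIV5 than at DIV0 (-0.28 ± 0.07, 0.0025). Ntng1 was at 5.58 and 5.56 CPM, 3.42 and 2.68 CPM, and 4.7 and 4.44 CPM. Its net fall from DIV0 to DIV5 (-0.40 ± 0.17, adjusted p = 0.04) lost its call with DESeq2, with library size scaling and without any 1 of the 4 libraries. Its step from DIV2 to DIV5 did not pass (0.42 ± 0.18, 0.058), and did with library size scaling (0.56), a minimum count of 30 (0.44) and without DIV2 replicate 1 (0.68).

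**Figure D3:**
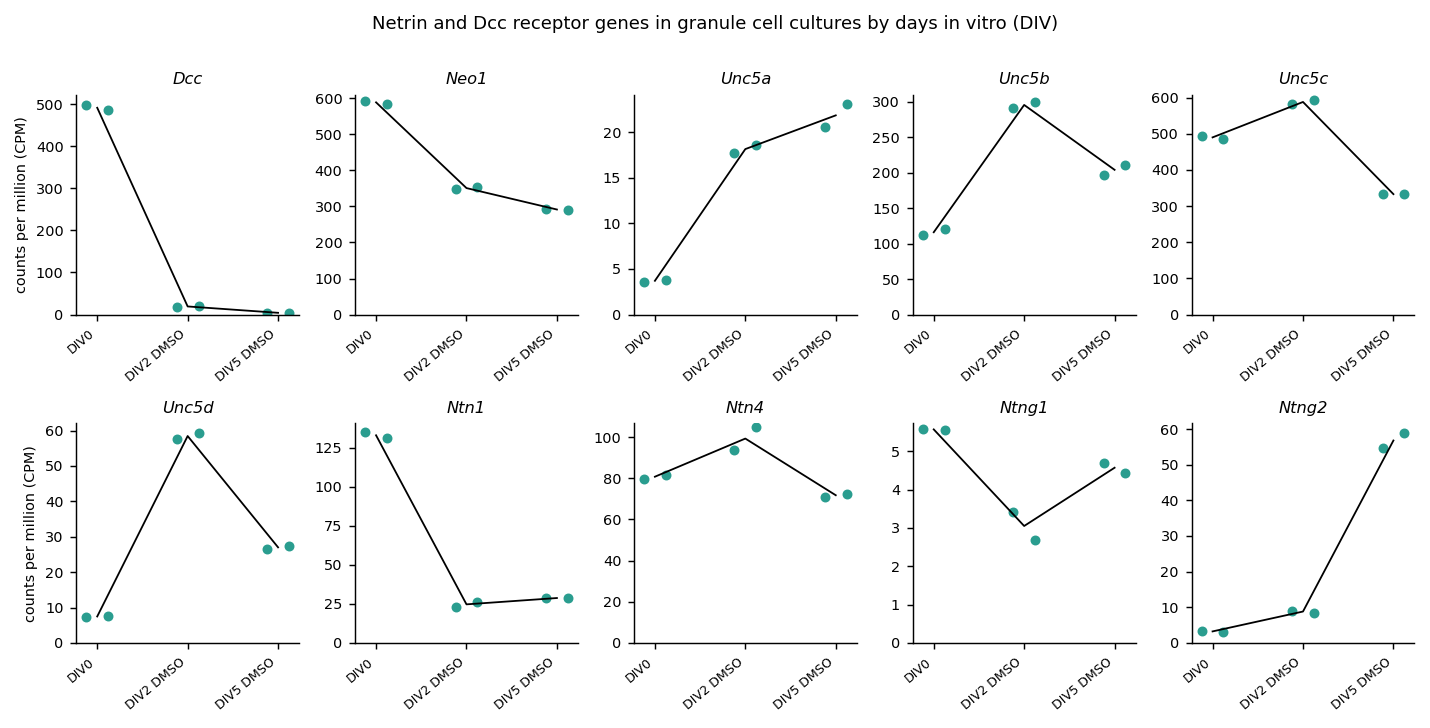
Level in CPM (vertical axis, from 0) of the 10 genes in each culture library at DIV0, DIV2 in DMSO and DIV5 in DMSO, with lines through the means of 2 libraries. Dcc stands at 3.62 to 4.53 CPM at DIV5 and 486 to 497 CPM at DIV0, and Unc5d peaks at 57.5 to 59.4 CPM at DIV2.

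Among the extracellular partners 8 of 14 were higher and 6 lower at DIV5 than at DIV0, and among the effectors 7 of 29 were higher and 19 lower (medians 0.67 and -0.49, against 0.041 over all genes). Lrrc4 (1.30 ± 0.08) and Dscam (0.93 ± 0.07) rose, and Draxin fell by 5.18 on the log2 scale (SE 0.11). Trim9, a ubiquitin ligase that binds Dcc, rose 8.57-fold (3.10 ± 0.08), and Enah fell (-1.91 ± 0.05). Vascular and meningeal markers summed to 858 to 859 CPM at DIV0, 2990 to 4860 CPM at DIV2 and 12400 to 13700 CPM at DIV5. Of 12 markers 3 were higher and 8 lower at DIV2 than at DIV0 (median log2 fold change -2.04), and 6 were higher and 6 lower at DIV5 than at DIV0. The rising sum thus does not stand for each marker. Microglia markers were 10 of 10 higher (783 to 826 CPM at DIV5 and 101 to 105 CPM at DIV0), and astrocyte markers 8 of 11 higher and 3 lower (2700 to 2750 CPM at DIV5 and 921 to 933 CPM at DIV0). Granule lineage markers were 5 of 10 higher and 5 lower (3780 to 3930 CPM at DIV5 and 4860 to 4900 CPM at DIV0), and progenitor markers 7 of 7 lower (471 to 512 CPM and 3470 to 3560 CPM). The part of the other cells in the members' changes was not tested.

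The change from P7 to P21 in the animal and from DIV0 to DIV5 in culture differed for 8 of 10 members, 4 with a higher and 4 with a lower difference. Of all 16455 genes 66.3% differed, 28.0% higher and 38.3% lower. The difference, P21 over P7 minus DIV5 over DIV0, was tested as a contrast in a joint fit of these groups. Unc5a and Unc5b rose in both settings, by 2.26 ± 0.12 in the animal and 2.45 ± 0.12 in culture for Unc5a, and 0.62 ± 0.11 and 0.70 ± 0.05 for Unc5b. Their differences did not pass (-0.25 ± 0.25, adjusted p = 0.4, and -0.15 ± 0.19, 0.51). Unc5d went opposite ways, -1.49 ± 0.21 in the animal and 1.74 ± 0.09 in culture, a difference of -3.30 ± 0.33 (adjusted p = 2.5e-07).

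Dcc, Ntn1, Neo1 and Unc5c fell in both settings, but by different amounts. The log2 fold change of Dcc was -4.36 ± 0.15 in the animal and -7.01 ± 0.10 in culture, a difference of 2.59 ± 0.28 (adjusted p = 4.7e-07). Ntn1 fell less in the animal (difference 1.75 ± 0.29, 5.5e-05), while Unc5c (-1.25 ± 0.18, 1.3e-05) and Neo1 (-0.78 ± 0.23, 0.0066) fell more there. Ntng2 rose in both, less in the animal (1.78 ± 0.13, against 4.03 ± 0.11 in culture; difference -2.31 ± 0.27, 1.4e-06). Ntn4 and Ntng1 were called higher in the animal and lower in culture (differences 1.19 ± 0.19, 3.9e-05, and 1.27 ± 0.26, 4e-04), though the fall of Ntng1 in culture was lost under several alternatives. Of 14 partners 8 had a higher and 5 a lower difference (Flrt3, 2.39 ± 0.17, and Flrt2, -4.54 ± 0.21), and of 29 effectors 9 a higher and 15 a lower one (Tiam1, 5.21 ± 0.17, and Dapk1, a death-associated kinase that binds Unc5 proteins, -2.91 ± 0.12). Library size scaling moved the median difference over all genes to -0.38 from -0.17. TRAP and total RNA, the starting cells, DMSO and the length of the interval differ between the settings and cannot be told apart.

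**Figure D4:**
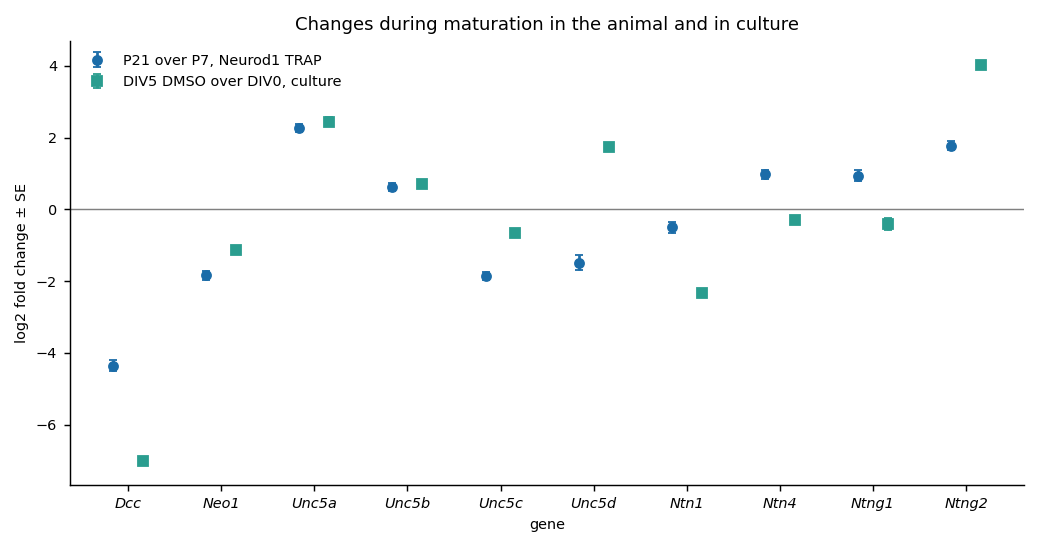
Log2 fold change with its SE (vertical axis) of each gene for P21 over P7 in Neurod1 TRAP (circles, 5 libraries at each age) and for DIV5 over DIV0 in culture (squares, 2 libraries at each time). Unc5a lies at 2.26 and 2.45, Unc5d on opposite sides of 0 at -1.49 and 1.74, and Dcc at -4.36 and -7.01.

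UNC1999 at 100 nM was set against DMSO at DIV5 (2 libraries each). Unc5a, Unc5b and Unc5d were higher with the inhibitor and the other 7 members did not pass, where 11.9% of all 15978 genes were called, 6.36% higher and 5.53% lower. Unc5a measured 33.5 and 36.3 CPM with UNC1999, against 20.6 and 23.1 CPM with DMSO, a 1.59-fold rise (0.67 ± 0.09, adjusted p = 2.4e-04). Unc5b measured 268 and 269 CPM with UNC1999, against 197 and 211 CPM with DMSO (0.39 ± 0.05, 2.9e-04). For neither gene did the treatments overlap. Unc5d, at 30.6 and 33.4 CPM with UNC1999 and 26.6 and 27.4 CPM with DMSO, was at the threshold (0.25 ± 0.08, adjusted p = 0.049) and lost its call under 9 of 10 alternatives. No member was called lower by edgeR or by DESeq2, which called 2 higher, and 2 lower members had an unadjusted p under 0.05. Unc5c did not pass (355 and 342 CPM with UNC1999, against 333 and 333 CPM with DMSO, 0.066 ± 0.05, adjusted p = 0.43), nor did Dcc (2.59 and 3.74 CPM, against 3.62 and 4.53 CPM with DMSO, -0.34 ± 0.16, 0.19) or Ntng2 (60.4 and 68.6 CPM, against 54.8 and 58.8 CPM with DMSO, 0.18 ± 0.07, 0.13). Neo1 (-0.14 ± 0.06), Ntn1 (-0.037 ± 0.08), Ntn4 (0.081 ± 0.07) and Ntng1 (0.41 ± 0.16) did not pass either. When UNC1999 replicate 1 was left out, Neo1 was called lower (-0.23) and the sign for Ntn1 turned (0.033). Of 14 partners 3 were called, each higher: Draxin (1.02 ± 0.14), Lrrc4 (0.44 ± 0.07) and Adgrl3, which binds Flrt and Unc5 proteins (0.34 ± 0.07). Of 29 effectors Pak1 was called, also higher (0.44 ± 0.05). No partner or effector was called lower by either tool, with 0 partners and 4 effectors lower at an unadjusted p under 0.05.

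Cell type markers shifted with UNC1999 too. Granule lineage markers were 6 of 10 higher (5040 to 5120 CPM in sum with UNC1999 and 3780 to 3930 CPM with DMSO). Astrocyte markers were 7 of 11 lower (2240 to 2470 CPM with UNC1999 and 2700 to 2750 CPM with DMSO) and vascular and meningeal markers 3 of 12 lower (10200 to 10600 CPM and 12400 to 13700 CPM). Interneuron markers were 4 of 7 lower and 0 higher (204 to 210 CPM with UNC1999 and 241 to 265 CPM with DMSO). Their part in the rise of the Unc5 genes was not tested.

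PRC2, the complex of EZH2 and EZH1, is known to occupy promoters rich in CpG dinucleotides. For this reason the CpG content of the members' promoters was counted, a choice made after the UNC1999 values had been seen. RefSeq (GRCm38.p6) gave the 250 bases before one transcription start of each of 7 members, and Dcc, Unc5d and Ntn1 were not used. By the gene spans given above, this window lies inside the gene for Unc5a and Ntng1 and in part for Neo1, since another annotated start lies further upstream. The median over 32851 mouse promoters of this length was 6 CpG. Neo1 had 45, Unc5b 27, Ntn4 26, Unc5a 25, Ntng1 25, Unc5c 23 and Ntng2 4. Unc5a and Unc5b, called under UNC1999, lay above this median, as did Neo1, Ntn4, Ntng1 and Unc5c, which were not called. Ntng2, also not called, lay below it, and Unc5d, called at the threshold, was not counted. A link between CpG content and the calls was not tested. Neither CAGCTG, an E-box that Atoh1-type factors can bind, nor GACCACCCA, the core bound by Gli factors, was in any of the 7 windows on either strand, against 13% and 0.23% of all promoters. The windows of Unc5a and Unc5b, the genes with the firmest calls, are shown 5′ to 3′ with each CpG in capitals.
Unc5a promoter, chr13:54949161-54949410, plus strand: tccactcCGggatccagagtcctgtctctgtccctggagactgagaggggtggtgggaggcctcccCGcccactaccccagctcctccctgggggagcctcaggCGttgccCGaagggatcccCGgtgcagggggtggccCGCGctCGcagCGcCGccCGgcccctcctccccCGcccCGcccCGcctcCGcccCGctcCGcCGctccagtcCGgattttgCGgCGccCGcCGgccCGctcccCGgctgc
Unc5b promoter, chr10:60831582-60831831, minus strand: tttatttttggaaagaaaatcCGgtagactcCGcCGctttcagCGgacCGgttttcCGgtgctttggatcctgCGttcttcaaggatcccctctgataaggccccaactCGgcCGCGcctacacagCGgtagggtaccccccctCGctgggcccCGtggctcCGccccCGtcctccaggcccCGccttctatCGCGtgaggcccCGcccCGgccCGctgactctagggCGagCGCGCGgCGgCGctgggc

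The Ezh1 cultures ask whether loss of EZH1 alone moved these genes. Ezh1 itself measured 34.8, 36.5, 35.6 and 33.7 CPM in the cKO libraries, against 40.7, 42.1, 49.9, 47.5 and 41 CPM in the wt libraries. All cKO libraries lay below all wt libraries, but by little (-0.34 ± 0.09, unadjusted p = 0.0051, adjusted p = 1), and a gene-level count includes reads from exons outside the deleted part, which the labels do not name. None of the 10 members was called by edgeR, and none had an unadjusted p under 0.05. DESeq2 called none either. Over all 14461 genes tested 0.0% were called, 169 had an unadjusted p under 0.05, and DESeq2 called 1. This fit has no term for the replicate sets, so their difference adds to its spread. For Unc5c the SE was 0.57 in it and 0.098 with a replicate block. The lack of calls therefore does not show that no member moved. Of 13 partners tested none was called by edgeR or DESeq2 and 1 had an unadjusted p under 0.05, and of 28 effectors none was called by either tool and 0 had one. Unc5a measured 14.6, 16.3, 30.3 and 26.8 CPM in cKO libraries, against 15, 13.7, 30.1, 36.4 and 24.5 CPM in wt libraries (-0.12 ± 0.33). Unc5b measured 175, 204, 320 and 305 CPM in cKO libraries, against 170, 157, 343, 361 and 287 CPM in wt libraries (-0.073 ± 0.29). The log2 fold changes of the 10 members ran from -0.12 to 0.29. In CPM the genotypes overlapped for all 10. Each genotype held libraries of both replicate sets. For members that differ between the sets this overlap had to occur, and it says nothing about genotype.

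The spread in these cultures came with the replicate number. Replicates 1 and 2 of both genotypes differed from replicates 3 to 5 for 7 members without overlap. The share of all genes that separate in this way was not counted, so this number is not a result about the members. Unc5c was at 451 and 464 CPM in cKO and 481, 433 and 414 CPM in wt for replicates 3 to 5, against 136 and 148 CPM in cKO and 104 and 115 CPM in wt for replicates 1 and 2. The mean over replicates 3 to 5 divided by that over replicates 1 and 2 was 3.56 for Unc5c, 2.71 for Ntn4, 1.99 for Unc5a, 1.84 for Unc5b, 1.78 for Dcc, 1.73 for Unc5d and 1.53 for Ntng2, while Neo1, Ntn1 and Ntng1 overlapped between the sets. These sets were defined after the data were seen and have no label, so no test is given. Microglia markers (10 genes) summed to 54.3 to 90.4 CPM in replicates 3 to 5 and 458 to 622 CPM in replicates 1 and 2. Astrocyte markers (11 genes) summed to 3130 to 7310 and 7050 to 13700 CPM, and granule lineage markers (10 genes) to 4470 to 5480 and 3000 to 3490 CPM. Cldn5 was at 0 in wt replicates 1 and 2. Hk3, a gene of myeloid cells that lies over exons of Unc5a on the opposite strand, was at 2.22 to 4.35 CPM in replicates 3 to 5 and 33 to 45.7 CPM in replicates 1 and 2. The library kit does not mark strand, so reads from bases that lie in exons of both genes could not be told apart. Only the span of Hk3 was compared with exons of Unc5a, and whether their exons share bases was not checked. The part of other cells in the split was not tested. With the set as a term in the fit, the log2 fold change was 0.037 for Unc5b and 0.18 for Unc5c, again without a call.

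The effect of UNC1999 minus that of Ezh1 cKO was tested directly over 13 libraries, none shared by the effects. No member passed by edgeR, none had an unadjusted p under 0.05, and DESeq2 called none. Of all 15453 genes 0.0% were called, 247 had an unadjusted p under 0.05 and DESeq2 called 7. For Unc5a the difference was 0.81 ± 0.51 and for Unc5b 0.48 ± 0.44. With the library set as a term it was 0.70 ± 0.19 for Unc5a (adjusted p = 0.38) and 0.37 ± 0.15 for Unc5b (0.67). With the replicate block it was 0.76 ± 0.18 for Unc5a (adjusted p = 0.28) and 0.41 ± 0.16 for Unc5b (0.51). The SEs were smaller in these fits, and neither gene passed in them. In simulated data the fit without these terms recovered 63.8% of 2-fold differences. Those data had the same spread setting for every gene and no split by library set. The share therefore does not give the power in these cultures.

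**Figure D5:**
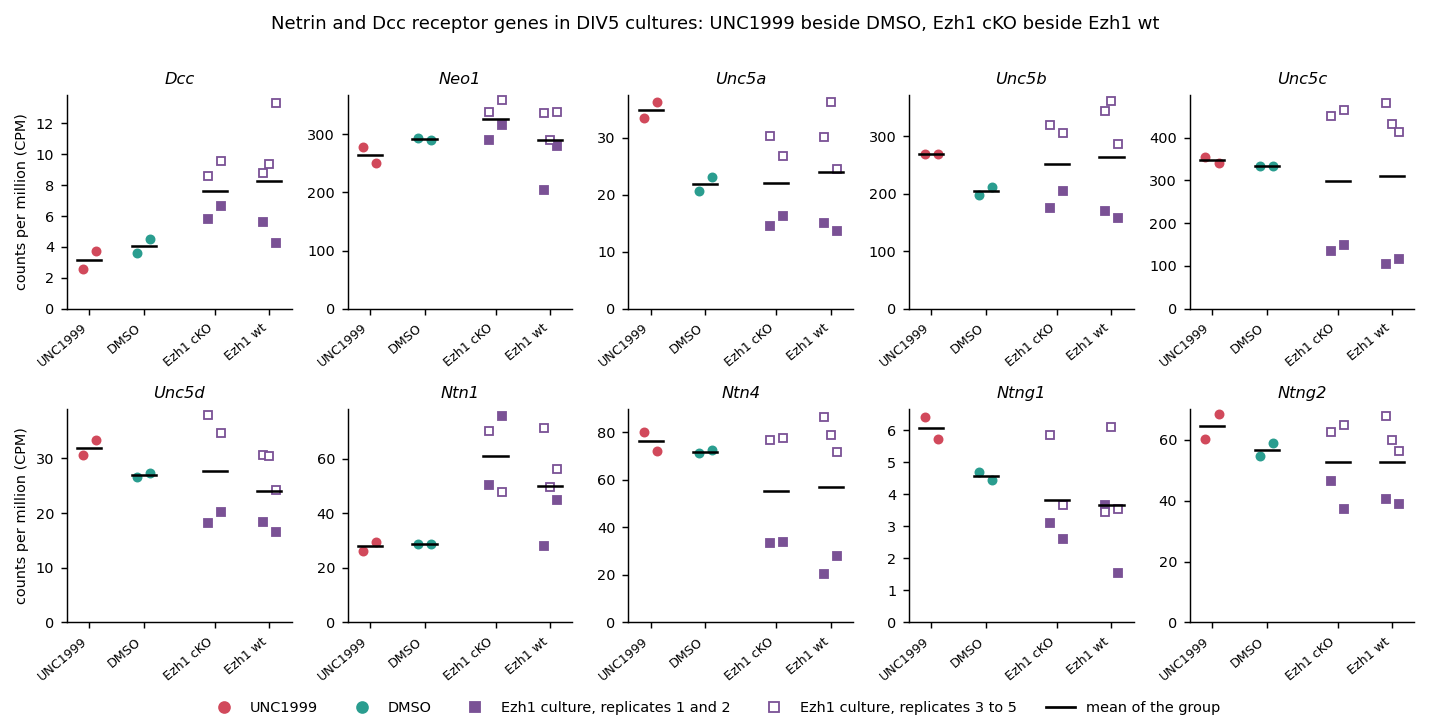
Level in CPM (vertical axis, from 0) of the 10 genes in DIV5 cultures with UNC1999 and with DMSO (circles) and in Ezh1 cKO and Ezh1 wt cultures (squares, filled for replicates 1 and 2, open for replicates 3 to 5), with bars for group means. Unc5a is at 33.5 to 36.3 CPM with UNC1999 and 20.6 to 23.1 CPM with DMSO, and in the Ezh1 cultures Unc5c separates replicates 3 to 5, at 414 to 481 CPM, from replicates 1 and 2, at 104 to 148 CPM.

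Over the 19 TRAP libraries, the genes whose log2 level ran most like that of each member with a mean of at least 5 CPM were named by Pearson's r across 13911 genes, as a description. The libraries share their group structure, so r reflects differences between lines and ages. Msn, Nav2 and Aldh18a1 ran most like Dcc (Pearson's r = 0.993 each), and Adgrg1, Brip1os and Serpinh1 most like Neo1 (0.995, 0.992 and 0.989). Tmem151a, Svop and Pcsk1n ran most like Unc5a (0.994, 0.993 and 0.991), Chst11, Tspan4 and Bmp1 most like Unc5b (0.981, 0.973 and 0.971), and Cxadr, Pag1 and Frmd4b most like Unc5c (0.99, 0.985 and 0.984). Among the ligands, Col18a1, Sgpl1 and Wls ran most like Ntn1 (0.986, 0.984 and 0.983), and Gramd4, Sgcb and Yipf3 most like Ntn4 (0.987, 0.972 and 0.968). Trhde, Spag1 and Pigk ran most like Ntng2 (0.974, 0.974 and 0.972), and Alas2, Acp6 and Saxo2 most like Ntng1 (0.924, 0.899 and 0.885).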

How the data were processed

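Polyadenylated RNA of 39 libraries was sequenced as single-end reads with a kit that does not mark strand, per the labels' protocols. The deposited table holds estimated counts, taken as rounded by the authors since all are whole, with no scaling between libraries. Salmon 0.8.2 and mm10 are named per the submitters' processing notes, without their role, and the annotation and how transcripts were summed to genes are not given in the sources used here. Of 24100 Entrez identifiers 24045 were matched to symbols. In the 9 Ezh1 libraries 1041 genes are blank, 1012 on X and 28 on Y, none of them members. These genes were left out of fits with those libraries.

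Libraries were grouped by their labels. Each fit covered all genes with edgeR (version 4.0.16, under R 4.3.3). Low genes were removed by filterByExpr at a count of 10 and a total of 15. Robust quasi-likelihood tests, two-sided and TMM-scaled, were made with Benjamini-Hochberg adjustment and a threshold of 0.05. One fit held the 4 TRAP groups and one the 4 culture groups, each with a common spread, and age was a term in the fit of Neurod1 TRAP with inputs. For inputs the filter was grouped by pull-down and input after a fit with 6 groups had been seen. CPM used library totals, and exon length is the exon union of GENCODE M21 (GRCm38). Throughout ± is the SE of a log2 fold change. The fits were tested on simulated 2-fold changes of 200 genes, of which 100% were recovered for TRAP over input, 83% for UNC1999, 63.8% for UNC1999 minus cKO and 63% for animal minus culture. The simulated counts had the same spread setting for every gene and no library sets, so these shares need not hold for the data. No libraries were identical. Counting precision is limited by depth, and reads carry no molecular identifiers.

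Named are all members in every comparison, up to 3 called genes with the smallest p in each direction of each partner and effector list, and the 3 genes most alike. Hk3 and Cldn5 were named after their values were seen. Members, lists and tests were chosen with earlier results of these data known. Alternatives were library size scaling, DESeq2 1.42.0, no low-count filter, a minimum count of 30, a replicate block, fits of only the groups compared and leaving out each library. The Ezh1 library sets and a crossed block were added after the data were seen. Same-numbered Ezh1 libraries deviated together (r from 0.821 to 0.9), which follows the library sets; the check was made after counts with the block had been seen. Protein sequences and a genome were not used here.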

Additional observations from a re-analysis of the deposited data

Results flagged for a closer look

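Of 60 groups of 4 or 5 libraries examined for a library far from the rest, 1 had such a library. It was the highest Math1 TRAP library for Unc5c, at 142 CPM, with the other 3 at 99 to 105 CPM. Chance gives about 1 in 20 such groups.

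For 8 members the change from P7 to P21 in the animal differed from the change from DIV0 to DIV5 in culture, by a contrast in the joint edgeR fit. The differences, animal minus culture on the log2 scale, were 2.59 for Dcc, 1.75 for Ntn1, 1.27 for Ntng1, 1.19 for Ntn4, -0.78 for Neo1, -1.25 for Unc5c, -2.31 for Ntng2 and -3.30 for Unc5d. The animal libraries are TRAP RNA and the cultures total RNA, and the setting and the RNA fraction cannot be told apart.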

How the results depend on the processing

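Of 77 called results of members, 68 kept their call and direction under every alternative run, 9 lost the call under at least 1, and 0 changed direction. For TRAP over input, 1 member was higher with library size scaling and 1 without the age factor, where 2 were lower. For DIV5 over DIV2, 4 were higher with library size scaling, 2 with a minimum count of 30, 2 with the replicate block, and 1 to 2 when a library was left out. Under UNC1999, 0 to 1 members were lower when a library was left out. Fits with the replicate block changed no other count of members by over 1.5 times, and the crossed block for DIV5 over DIV2, added after the data were seen, gave 1 higher and 6 lower. With the block, Unc5b for P21 over P12 and Ntng1 for DIV5 over DIV2 (0.43) gained a call. Same-numbered libraries correlated from -0.395 to 0.259 in TRAP, from -0.206 to -0.002 between culture times, and at 0.107 for UNC1999 and DMSO. With 2 libraries a group, deviations from the group mean mirror each other. Each of these culture values is thus a single number, whose sign alone sets the best match. In TRAP, 1 of 5 pairs of P21 and P12 and 2 of 5 pairs of P21 and P7 correlated above 0.1. The numbers were not taken as pairs in any main fit, that of the Ezh1 cultures included, and the block is an alternative only. For Unc5c in the Ezh1 cultures the SE was 0.57 in the main fit and 0.098 with the block, without a call in either.

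Signs that changed belonged to members without a call, and the cause was not tested. Ezh1 cKO over wt gave 0.018 for Dcc, 0.037 for Unc5b, 0.052 for Ntng2, 0.18 for Unc5c and 0.18 for Ntn4 with the library set as a term. From replicates 1 and 2 alone it gave 0.070 for Unc5a, 0.18 for Unc5b, 0.29 for Dcc, 0.046 for Ntng2, 0.34 for Unc5c and 0.45 for Ntn4, and from replicates 3 to 5 alone 0.064 for Ntng2 and 0.056 for Unc5c. With the replicate block it gave 0.14 for Dcc, 0.013 for Ntng2, 0.16 for Unc5c and 0.17 for Ntn4. Ntng2, -0.0005 as reported, was 0.0059 with DESeq2, 0.0037 with library size scaling, 0.0012 with a minimum count of 30 and 0.0028 without the filter. The difference UNC1999 minus cKO was -0.10 for Unc5c and -0.084 for Ntn4 with the library set, -0.28 and -0.38 from replicates 1 and 2, -0.091 and -0.071 with the block, and -0.13 for Unc5d and -0.0078 for Unc5c from replicates 3 to 5. Library size scaling gave -0.015 for Ntn4 (P21 over P12) and -0.20 for Unc5b (TRAP over input), no filter 0.012 for Ntng1 (TRAP over input), and Math1 replicates 1 and 2 alone 0.0067 for Unc5c and 0.14 for Ntng1.

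When a library was left out, Ezh1 cKO over wt ran from -0.26 to 0.11 for Dcc, -0.25 to 0.16 for Ntn4, -0.23 to 0.30 for Ntng1, -0.11 to 0.14 for Ntng2, -0.31 to 0.074 for Unc5a, -0.21 to 0.065 for Unc5b and -0.33 to 0.19 for Unc5c. UNC1999 minus cKO ran from -0.086 to 0.33 for Ntn4, -0.12 to 0.39 for Unc5c and -0.11 to 0.21 for Unc5d. The others were -0.18 to 0.054 for Ntng1 and -0.18 to 0.0063 for Unc5c (Neurod1 over Math1), -0.23 to 0.013 for Unc5d (P12 over P7), -0.24 to 0.12 for Ntng1 (TRAP over input) and -0.12 to 0.033 for Ntn1 (UNC1999 over DMSO).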
